A study of Homo sapiens with 12 samples.

Results

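The proteasome genes were taken as every gene of the deposited table whose symbol is PSM followed by a letter from A to G and a number. The rule found 48 symbols, carried by 66 of the 40295 gene identifiers, and identifiers of one symbol were summed. By particle these were 8 genes of the 20S alpha ring, 7 of the constitutive 20S beta ring, 4 beta subunits of specialised particles, 6 ATPases and 11 other subunits of the 19S cap, 3 chaperones of 19S assembly, 4 chaperones of 20S assembly, and 5 genes for other activators and an inhibitor. The cap subunits ADRM1 and SEM1 have no PSM symbol. Counts of cap genes below leave them out, and they are described among the partner genes.

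The proteasome is the protease that degrades ubiquitin-tagged proteins. Its barrel, the 20S core, is a stack of alpha and beta rings whose beta subunits cut the substrate, and the 19S cap binds ubiquitin chains, unfolds the substrate with a ring of ATPases and removes the ubiquitin. When degradation falls behind, the transcription factor NFE2L1 is known to raise subunit genes of both particles together, and interferon swaps in the inducible beta subunits and the PSME1-PSME2 activator, which favour peptides for antigen presentation.

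RNA was sequenced from TOV-112D, an ovarian carcinoma line with R175H mutant p53, after 3 h with DMSO, UCI-1001 or UCI-1014 (2 libraries each), where UCI-1001 is a small molecule put forward as an activator of mutant p53 and UCI-1014 is the related compound tested beside it. RNA was also sequenced from cells labelled Saos-2, an osteosarcoma line without p53, after 16 h of induction: 3 libraries came from parental, p53-null cells and 3 from cells with a lentiviral, doxycycline-inducible p53-WT gene. The labels give no dose for either compound and do not say whether libraries of one group came from separate cultures, so p-values measure the spread between these libraries, which may be technical. Bulk RNA gives 1 value for a whole culture, in which fewer cells with a transcript and less transcript per cell cannot be told apart.

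Library totals lay between 17762027 and 24629558 counts. CDKN1A, a target gene of p53, stood at 79.1, 56.9 and 58.05 CPM in the p53-null libraries and 9039, 7921 and 8047 CPM in the p53-WT libraries, where CPM is a gene's count over the library total, scaled by edgeR's TMM factor. In the 6 libraries labelled Saos-2, the osteoblast marker SP7 had no count, IBSP reached 0.0877 CPM and ALPL 0.532 CPM, while the keratin gene KRT18 stood between 402 and 559 CPM. Among other bone genes, SPP1 ranged over 13.5 to 44.7 CPM, COL1A1 over 0.397 to 1.84 CPM and RUNX2 over 4.16 to 12.1 CPM. In the 6 TOV-112D libraries, the epithelial gene KRT18 had no count, KRT7 and KRT8 ranged over 0 to 0.0597 and 0.0541 to 0.512 CPM, EPCAM over 1.804 to 3.09 CPM, CDH1 over 0.819 to 1.79 CPM and WT1 over 1.14 to 2.302 CPM, and PAX8 and MUC16, ovarian epithelial markers, had 1 count each in 1 library, or 0.0515 CPM. The libraries numbered 1 of both lines labelled Saos-2 stood apart from their group: chi-square per degree of freedom over all genes was 25.4 and 23.8 between p53-null library 1 and the others against 3.86 between those, and 41.4 and 41.0 for p53-WT against 3.18. The proteasome genes shared in this, since the median member was higher in p53-null library 1 by a log2 difference of 0.28 and 0.20 and in p53-WT library 1 by 0.18 and 0.18, so values for this pair are also given without both libraries.

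The proteasome genes were well expressed, and the median member stood at 141 CPM in TOV-112D against 27.3 CPM for the median gene tested, and at 184 against 23.9 CPM in the cells labelled Saos-2. Together the members held 0.652 and 0.645 percent of the counts in the DMSO libraries and 1.14, 1.01 and 1.04 percent in the p53-null libraries. After correction for transcript length (TPM), the 39 members with usable TPM ran in DMSO from PSMG4, at 18.3 and 15.6 TPM, to the beta-ring subunit PSMB4, at 627 and 612 TPM, with PSMA8 and PSMB11 at 0. PSMB4 and then PSMB1, another beta-ring subunit without a catalytic site, led the order in DMSO, and their ranges did not overlap with each other or with the next gene, the alpha-ring gene PSMA7 at 416 and 400.4 TPM. Below them the order was less sharp, since 18 of the neighbouring pairs in DMSO and 25 in p53-null overlapped between libraries.

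Within one particle the transcripts were far from equal in level. The beta-ring members had a median of 359 TPM in DMSO and spanned 96.5 to 620 TPM (PSMB2 to PSMB4), and the 19S non-ATPase members had a median of 202 TPM and spanned 76.8 to 308 TPM (PSMD6 to PSMD2). In p53-null cells the ATPase gene PSMC1 led the order, at 998, 949 and 951 TPM, ahead of the cap subunit PSMD8 and PSMB1. These TPM are sums over all transcripts of a gene, coding or not. Transcripts not annotated as protein coding held a median of 48.0 percent of PSMC1's TPM in p53-null cells. For PSMD8 and PSMB1 they held 0.106 and 0.159 percent, so the lead of PSMC1 is not one of coding transcripts. Chaperones of assembly, which leave the finished particle, lay lower, with medians of 60.7 TPM (19S) and 64.7 TPM (20S) in DMSO. PSMA8, an alpha subunit of the testis, was under the filter on low counts in both lines with 0.0512 CPM in 1 UCI-1014 library and no count in the other 11, and PSMB11, the beta subunit of the thymus, had 0.133 and 0.0441 CPM in 2 p53-WT libraries and none elsewhere. The inducible subunit PSMB8 stood at 0 and 0.217, 0 and 0.201, and 0 and 0.0512 CPM in the DMSO, UCI-1001 and UCI-1014 libraries and was under the filter in TOV-112D. A count of 0 allowed up to 3 counts, or 0.131 to 0.179 CPM depending on the library, counting error alone considered.

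**Figure D1:**
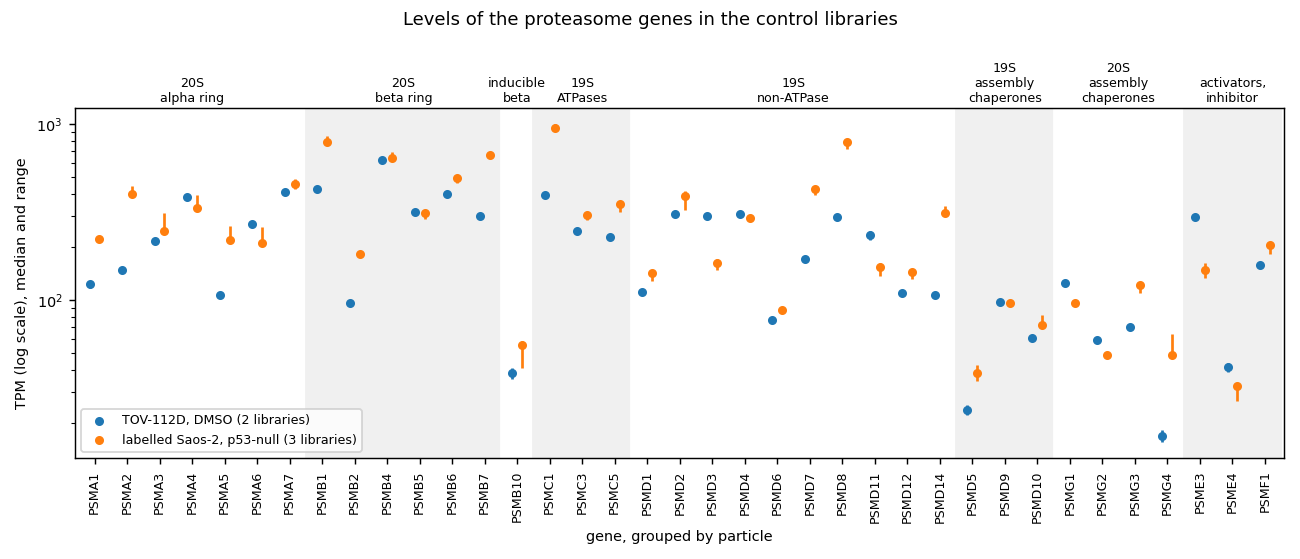
Median (points) and range over libraries (lines) of TPM, on a log scale, for the proteasome genes with usable TPM, in the 2 DMSO libraries of TOV-112D and the 3 p53-null libraries. Genes of the 20S beta ring and the 19S cap lie between 76.8 and 951 TPM in both, and among the lowest points are PSMB10, PSME4 and the chaperones PSMG4 and PSMD5.

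UCI-1001 was compared with DMSO to ask which genes the compound changed within 3 h. Of the 45 members tested, 6 rose and 1 fell (edgeR's quasi-likelihood test, Benjamini-Hochberg adjusted p under 0.05 over all 14177 genes), that is 13.3 percent raised and 2.22 percent lowered, where 9.39 percent of all genes tested were raised and 6.36 percent lowered. Of the 17 PSM-named subunits of the 19S cap, 4 rose, with a median log2 fold change of 0.082 over the 17. The 14 constitutive 20S subunits tested had a median of 0.015, with PSMB1 raised and 0 lowered. At an unadjusted p under 0.05, 7 cap subunits were above and 0 below DMSO, and 2 core subunits above and 0 below, while DESeq2 called 3 cap subunits and 1 core subunit raised and 0 of either lowered. The median over all 45 members was 0.029, and over all genes 0.0016.

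The largest rise was that of PSMD10 (ENSG00000101843, chrX:108084207-108091549), known as gankyrin, a chaperone that holds an ATPase pair while the cap assembles. It stood at 45.5 and 46.9 CPM in the DMSO libraries and 60.3 and 58.3 CPM with UCI-1001 (log2 fold change 0.36 ± 0.06 (SE), adjusted p = 0.000871). The next were the ATPase gene PSMC2 (ENSG00000161057, chr7:103328570-103370346) and PSMD14, the metalloprotease of the cap that cuts ubiquitin chains off the substrate. PSMC2 went from 84.9 and 83.7 CPM to 99.7 and 98.9 CPM (log2 fold change 0.24 ± 0.045 (SE), adjusted p = 0.00232). PSMD14 went from 118 and 119 to 130.3 and 137 CPM (log2 fold change 0.18 ± 0.043 (SE), adjusted p = 0.0115). In these 3 genes both treated libraries lay above both DMSO libraries. The lid subunit PSMD12, the ATPase gene PSMC6 and PSMB1 rose by 0.18, 0.17 and 0.15 on the log2 scale. PSMD9, another chaperone of the cap's base, was the member lowered, from 54.7 and 50.5 to 43.6 and 47.3 CPM (log2 fold change -0.21 ± 0.065 (SE), adjusted p = 0.0418). These calls were near the threshold: leaving out 1 library left between 1 and 6 raised, with 1 left without DMSO library 2 and 2 without DMSO library 1 or UCI-1001 library 2, and a fit of all 12 libraries together left 0 raised and 0 lowered. PSMD9 was not called by DESeq2, with the replicate number as a block, or without DMSO library 1, DMSO library 2 or UCI-1001 library 1.

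UCI-1014 changed more of these genes. Of the 45 members, 18 rose and 6 fell, 40 percent and 13.3 percent, where 23.7 percent of all genes tested were raised and 23.4 percent lowered. Most of the rises were in the 19S cap. Of its 17 PSM-named subunits, 13 rose and 0 fell, with a median log2 fold change of 0.28, and 16 were above 0. By unadjusted p as well as by DESeq2, 0 of the 17 were lower. Outside the 17, the cap subunit SEM1 fell by 0.28 and ADRM1 rose by 0.39 on the log2 scale. The constitutive 20S core gave 3 raised and 1 lowered of 14, with a median of -0.038. The median over all 45 members was 0.044 and over all genes -0.016. Without DMSO library 1 the members lowered came to 2 in place of 6. A count at this threshold depends on the level of a gene as well as on its change, and the part that the members' high level has in their share of calls was not tested.

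**Figure D2:**
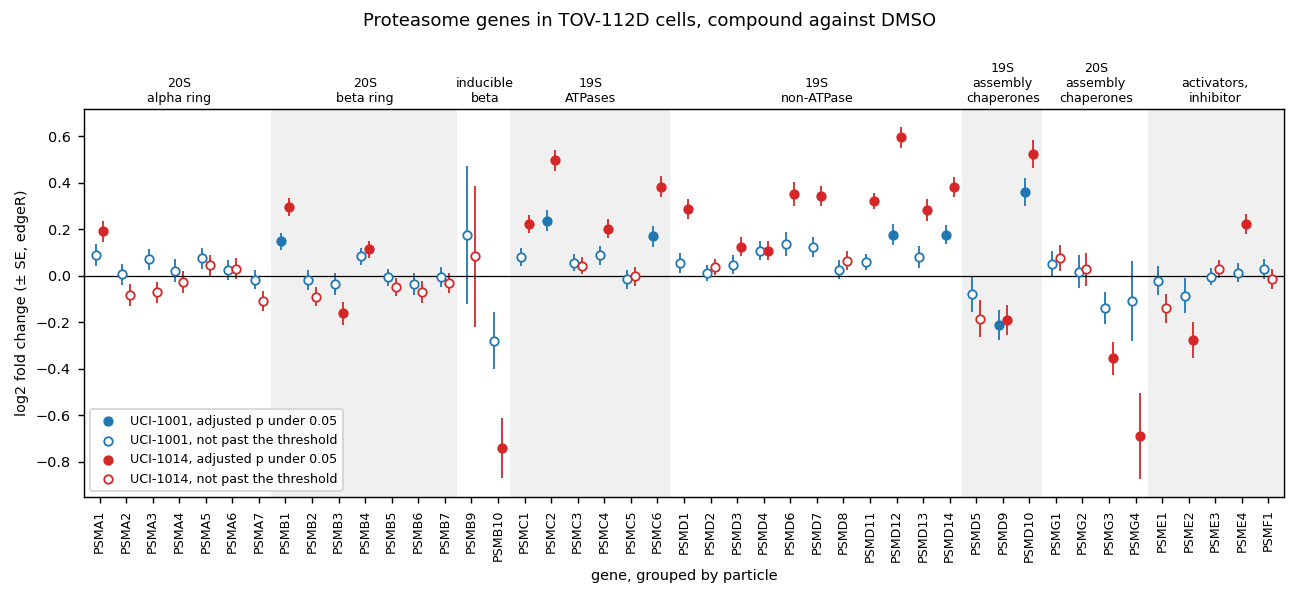
Log2 fold change (y axis, ± SE from edgeR) of each tested proteasome gene with UCI-1001 (blue) and UCI-1014 (red) against the same DMSO libraries of TOV-112D, grouped by particle, with filled points past an adjusted p of 0.05. With UCI-1014, 13 of 17 genes of the 19S cap are filled above 0, while the 20S alpha and beta rings have 3 filled above 0 and 1 below, and PSMB10 and PSMG4 lie lowest.

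Among the lid subunits, PSMD12 (ENSG00000197170, chr17:67337916-67366605) changed most. It stood at 116 and 118 CPM with DMSO, 133 and 132 CPM with UCI-1001 and 184 and 170.3 CPM with UCI-1014, a 1.51-fold rise (log2 fold change 0.60 ± 0.045 (SE), adjusted p = 7.01e-08). The 3 groups did not overlap. PSMD11, a lid subunit that bridges the cap and the core, stood at 308 and 312, 324 and 323, and 385 and 390.4 CPM in the same order (log2 fold change 0.32 ± 0.035 (SE), adjusted p = 2.92e-06). Its UCI-1001 libraries lay just above DMSO and its UCI-1014 libraries well above both. PSMD14 stood at 156 and 152 CPM with UCI-1014 (log2 fold change 0.38 ± 0.043 (SE), adjusted p = 4.13e-06). The other lid subunits PSMD6, PSMD7, PSMD13 and PSMD3 rose by 0.35, 0.34, 0.28 and 0.13 on the log2 scale, and PSMD8 was at 0.065 ± 0.041, adjusted p = 0.216. The call of PSMD3 was kept in 9 of its 14 alternative settings.

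In the ATPase ring of the cap, 4 of 6 genes rose. PSMC2 stood at 121 and 117 CPM with UCI-1014, 1.41-fold above DMSO (log2 fold change 0.50 ± 0.045 (SE), adjusted p = 4.33e-07). PSMC6 went from 87.6 and 90.04 CPM to 115 and 117 CPM (log2 fold change 0.38 ± 0.045 (SE), adjusted p = 6.01e-06). PSMC1 and PSMC4 rose by 0.22 and 0.20, and the other ATPase genes did not pass the test, with PSMC3 at 0.044 ± 0.038, adjusted p = 0.368, and PSMC5 at -0.0027 ± 0.041, adjusted p = 0.965. Of the large scaffold subunits, PSMD1 rose by 0.29 and PSMD2 was at 0.039 ± 0.035, adjusted p = 0.388. The ubiquitin receptor PSMD4 rose by 0.11, a call that was lost with DESeq2, with no filter on low counts, with the replicate block and in 3 of the 6 fits without 1 library.

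The promoters of genes that moved are given here as the 250 bases before the RefSeq start (GRCh38.p14, read 5′ to 3′ on the gene's strand), so that the letters can be seen beside the levels. PSMD12 at chr17:67366578-67366827 and PSMC2 at chr7:103347393-103347642 rose with UCI-1014, PSMD11 at chr17:32444260-32444509 rose with UCI-1014 and fell with p53-WT, and PSMG1 at chr21:39183452-39183701 fell most with p53-WT. PSMD12 and PSMG1 are on the minus strand and the others on the plus strand. The PSMC2 window lies inside the longer GENCODE span of that gene. The windows of PSMD12, PSMD11 and PSMG1 reach partly into the GENCODE spans of their genes, which start at 67366605, 32444379 and 39183488. Capitals mark matches, on either strand, to the core of the antioxidant response element (TGACNNNGC, the site type of NFE2L1 and NFE2L2 with a small MAF protein), to CCAAT (the box of NF-Y) and to CCGGAAG (a core of ETS factor sites).
PSMD12: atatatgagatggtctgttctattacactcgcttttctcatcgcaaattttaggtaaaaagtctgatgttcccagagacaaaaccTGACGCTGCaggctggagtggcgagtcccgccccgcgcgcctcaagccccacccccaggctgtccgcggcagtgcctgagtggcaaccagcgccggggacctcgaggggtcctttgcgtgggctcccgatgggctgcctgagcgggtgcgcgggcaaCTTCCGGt
PSMC2: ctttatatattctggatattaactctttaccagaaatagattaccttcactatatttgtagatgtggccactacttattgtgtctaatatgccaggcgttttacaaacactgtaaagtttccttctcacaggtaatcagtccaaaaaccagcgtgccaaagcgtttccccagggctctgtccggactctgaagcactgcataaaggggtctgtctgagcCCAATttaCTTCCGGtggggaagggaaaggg
PSMD11: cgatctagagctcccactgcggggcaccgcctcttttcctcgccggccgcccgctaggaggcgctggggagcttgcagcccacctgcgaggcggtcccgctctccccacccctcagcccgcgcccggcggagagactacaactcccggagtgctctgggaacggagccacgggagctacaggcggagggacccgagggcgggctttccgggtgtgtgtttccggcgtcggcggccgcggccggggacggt
PSMG1: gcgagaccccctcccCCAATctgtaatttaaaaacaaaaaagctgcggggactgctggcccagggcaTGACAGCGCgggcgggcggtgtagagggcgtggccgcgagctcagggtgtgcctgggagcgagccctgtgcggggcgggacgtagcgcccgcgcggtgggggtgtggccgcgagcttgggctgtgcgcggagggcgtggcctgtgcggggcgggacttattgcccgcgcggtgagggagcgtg

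The PSMD12 window held 1 match to the antioxidant response element core, TGACGCTGC, at positions -165 to -157 before the start, and an ETS core, CTTCCGG on this strand, at -8 to -2. PSMC2 had CCAAT at -31 to -27 and the same ETS core at -23 to -17. PSMG1 had TGACAGCGC at -183 to -175 and CCAAT at -235 to -231, and PSMD11 had no match. A table of RefSeq promoters held 51 windows for 42 of the 48 members, and 13 of the 51 (25.5 percent) had the antioxidant core, against 10.9 percent of all 35116 windows in the table. Heat shock element units (GAANNTTC or TTCNNGAA) were in 3 windows (5.88 percent) against 11.6 percent of all, CCAAT in 19 (37.3 percent) against 32 percent, and the CHR element TTTGAA in 6 (11.8 percent) against 13.3 percent. The antioxidant core was in 3 of the 18 windows of the 19S cap (16.7 percent) and 2 of the 15 of the 20S core (13.3 percent), a difference that was not tested. The ETS core, which was added after the sequences had been seen, was in 11 of the 51 windows (21.6 percent, against 8.52 percent of all): 6 of the 18 windows of the cap and 1 of the 15 of the core. That match in the core was in PSMA8, which was under the filter on low counts. No window was held for the core genes PSMA7, PSMB1, PSMB6 and PSMB7, the cap gene PSMD4 or PSMG3. A match is a description of letters and not a measured binding site.

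Few genes of the constitutive core passed the test. Its catalytic subunits are PSMB5, PSMB6 and PSMB7, which cut after hydrophobic, acidic and basic residues. PSMB5 stood at 211 and 210.1 CPM with DMSO and 202 and 206 CPM with UCI-1014 (log2 fold change -0.048, 95% interval -0.13 to 0.033). PSMB6 stood at 164 and 158 and 146 and 161 CPM (-0.07, -0.17 to 0.032). PSMB7 stood at 143 and 145 and 138 and 145 CPM (-0.029, -0.12 to 0.063). For all 3 the interval included 0 and its upper end was 0.063 or less. With UCI-1001 the same genes stood at 212 and 207, 156 and 158, and 147 and 141 CPM. The core genes that rose were PSMB1, from 195 and 194 to 235 and 242 CPM (log2 fold change 0.30 ± 0.038 (SE), adjusted p = 1.62e-05), PSMA1 (by 0.19) and PSMB4 (by 0.11), and PSMB3 fell by 0.16. The call of PSMB4 was kept in 9 of its 14 alternative settings and that of PSMB3 in 10 of 13.

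Summed over the particle and scaled by TMM, the 19S genes stood at 3113 and 3117 CPM with DMSO, 3270.4 and 3292 CPM with UCI-1001 and 3568 and 3641 CPM with UCI-1014. The constitutive 20S genes stood at 2206 and 2175, 2246 and 2229.9, and 2177 and 2237 CPM. Both UCI-1014 libraries lay above both DMSO libraries in the cap, and the groups overlapped in the core. As a plain share of all counts, with no TMM factor, the core went down, from 0.229 and 0.225 percent with DMSO to 0.205 and 0.211 percent with UCI-1014, and the cap from 0.323 and 0.322 to 0.336 and 0.343 percent. The UCI-1014 libraries carried TMM factors of 0.943 and 0.944 against 1.04 and 1.03 for DMSO. In them a single heat shock gene, HSPA1A, stood at 25117 and 23715 CPM, against 227 and 207 CPM with DMSO, and its part in the shares was not tested.

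The members lowered by UCI-1014, beside PSMB3, were among the inducible subunits, the activators and the chaperones. PSMB10 (ENSG00000205220, chr16:67934506-67936864), the inducible counterpart of PSMB7, stood at 11.03 and 10.4 CPM with DMSO, 9.16 and 8.55 CPM with UCI-1001 and 6.93 and 5.99 CPM with UCI-1014 (log2 fold change -0.74 ± 0.13 (SE), adjusted p = 0.000285). The 3 groups did not overlap. PSMG4, a chaperone of alpha-ring assembly that pairs with PSMG3, stood at 7.52 and 6.497, 7.58 and 5.43, and 4.18 and 4.502 CPM (log2 fold change -0.69 ± 0.19 (SE), adjusted p = 0.00683), with a DMSO library and a UCI-1001 library close together at the top. PSMG3 stood at 32.6 and 32.6, 30.01 and 29.2, and 25.03 and 25.9 CPM (log2 fold change -0.35 ± 0.071 (SE), adjusted p = 0.000867). Both UCI-1014 libraries lay below the other 4 in either gene. The other chaperone pair of the alpha ring, PSMG1 and PSMG2, was at 0.075 ± 0.056, adjusted p = 0.295, and 0.028 ± 0.072, adjusted p = 0.781. The call of PSMG4 was lost without DMSO library 1, and that of PSMG3 in the fit of all 12 libraries.

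Activators dock on the ends of the core in place of the cap. PSME2, one subunit of the interferon-induced activator, stood at 37.3 and 35.1 CPM with DMSO, 35.2 and 33.1 CPM with UCI-1001 and 28.2 and 31.5 CPM with UCI-1014 (log2 fold change -0.28 ± 0.077 (SE), adjusted p = 0.0087). Its partner PSME1 stood at 44.02 and 46.7, 45.6 and 43.8, and 41.5 and 40.8 CPM (adjusted p = 0.085 for UCI-1014 against DMSO), which did not pass. The call of PSME2 was lost with DESeq2 and without DMSO library 1 or UCI-1014 library 1. PSME4, a large nuclear activator, rose from 168 and 166 to 195 and 195 CPM (log2 fold change 0.22 ± 0.042 (SE), adjusted p = 0.000491), with 163 and 174 CPM under UCI-1001. The nuclear activator PSME3 stood at 314 and 316, 308 and 320.3, and 326 and 316 CPM and the inhibitor PSMF1 at 112 and 112, 114 and 115, and 110.3 and 112 CPM, neither past the test. PSMB9, the inducible counterpart of PSMB6, was low throughout, at 2.58 and 1.52 CPM with DMSO, 2.13 and 2.51 CPM with UCI-1001 and 2.21 and 2.15 CPM with UCI-1014 (95% interval of the log2 fold change -0.56 to 0.73). Of the cap's chaperones, PSMD10 rose to 69.1 and 63.9 CPM (log2 fold change 0.52 ± 0.06 (SE), adjusted p = 5.34e-06), PSMD9 fell by 0.19 on the log2 scale, and PSMD5 was at -0.18 ± 0.079, adjusted p = 0.0702. The call of PSMD9 was kept in 9 of its 14 alternative settings and was lost with DESeq2.

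**Figure D3:**
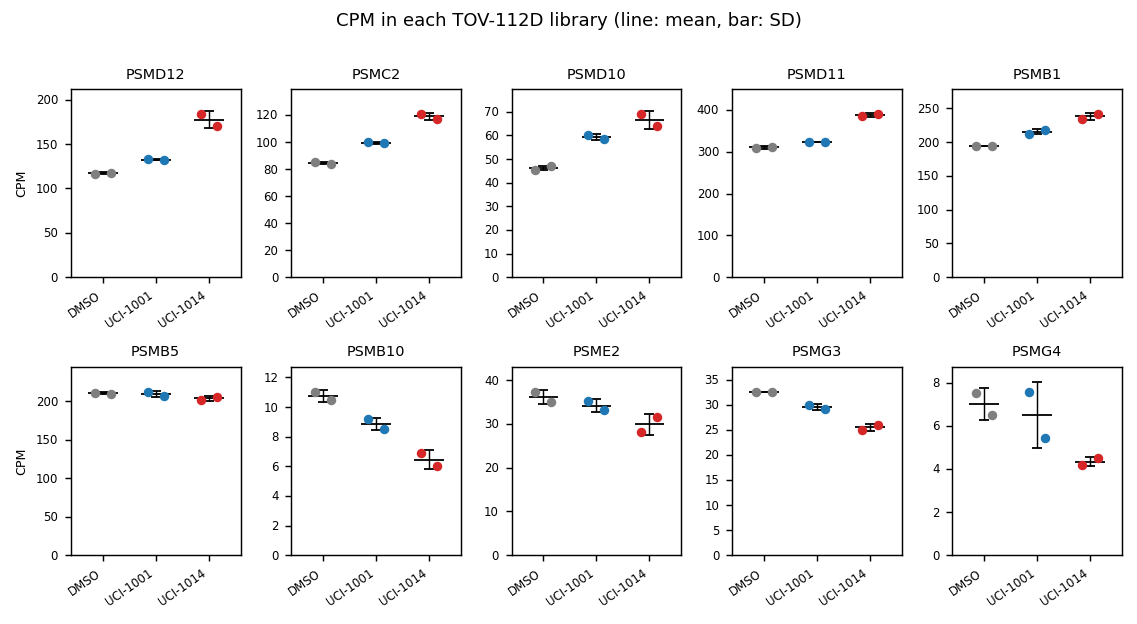
CPM of 10 proteasome genes in each of the 6 TOV-112D libraries, with the mean as a line and the SD as a bar for each group of 2 and the y axis from 0. PSMD12, PSMC2, PSMD10 and PSMD11 step up from DMSO to UCI-1014, PSMB5 stays level, and PSMB10, PSMG3 and PSMG4 are lowest with UCI-1014.

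The rises of the cap with UCI-1014 held under most settings. DESeq2 called 12 of the 17 raised, the fit with the replicate block 12, fits without 1 library 11 to 14, and none of these called a cap subunit lowered. The settings that gave fewer were limma on log2(TPM + 0.5), which called 7 of the 13 cap subunits with usable TPM, and a fit of all 12 libraries, whose spread is set partly by the other cell line and which called 5 of 17. The largest log2 fold change among the members was under 1 in size, so a rule that also asks for a log2 fold change above 1 called 0 members in either compound.

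UCI-1014 was also set against UCI-1001 directly, as 1 pair of related compounds at 3 h each. A dose for the sequenced cells is given by the study's text for UCI-1001 and was not found there or in the labels for UCI-1014, so doses could not be matched and the differences are those of the treatments as applied. Of 45 members, 14 were higher with UCI-1014 (31.1 percent, against 17.1 percent of all genes) and 4 lower (8.89 percent, against 13.9 percent). In the cap 11 of 17 were higher and 0 lower, with a median log2 difference of 0.20, and in the constitutive core 1 of 14 was higher (PSMB1, by 0.15) and 1 lower (PSMA3, by a log2 difference of -0.14, adjusted p = 0.0291). PSMD12 differed most (log2 fold change 0.42 ± 0.044 (SE), adjusted p = 6.54e-06, 95% interval 0.32 to 0.51), followed by PSMD11 (log2 fold change 0.26 ± 0.035 (SE), adjusted p = 4.91e-05) and PSMC2 (log2 fold change 0.26 ± 0.044 (SE), adjusted p = 0.000398). In each of these the UCI-1014 libraries lay above both UCI-1001 libraries. PSMG4 (log2 fold change -0.58 ± 0.19 (SE), adjusted p = 0.0286), PSMB10 (log2 fold change -0.46 ± 0.13 (SE), adjusted p = 0.0164) and PSMG3 (log2 fold change -0.21 ± 0.071 (SE), adjusted p = 0.0343) were lower.

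Where no difference was called, the intervals were narrow for well-expressed genes. PSMB5 differed by -0.041 with a 95% interval of -0.12 to 0.039, PSMD2 by 0.026 (-0.048 to 0.10), and PSMC5 by 0.012 (-0.076 to 0.099). For PSMB9, at a low level, the interval of -0.73 to 0.54 included differences of either sign. PSMD9, lowered by UCI-1001, differed between the compounds by 0.021 (-0.12 to 0.16). PSMD10, which rose with each compound against the shared DMSO libraries, was higher with UCI-1014 by 0.16 (0.038 to 0.29), a call lost in 11 of its 15 alternative settings. All 4 falls, PSMA3, PSMB10, PSMG3 and PSMG4, were lost with DESeq2, and the 14 rises became 2 on TPM and 0 in the fit of all 12 libraries. The count lowered was 2 without DMSO library 1, DMSO library 2 or UCI-1001 library 2, 1 without UCI-1014 library 1 and 0 without UCI-1001 library 1. At an unadjusted p under 0.05, 15 members were higher and 7 lower with UCI-1014.

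Genes that work with the proteasome were described from a list of 34. With UCI-1001, 10 rose and 2 fell, and with UCI-1014, 18 rose and 6 fell, with medians of 0.10 and 0.18 on the log2 scale. These are 29.4 percent raised and 5.88 percent lowered by UCI-1001, beside 9.39 and 6.36 percent of all genes, and 52.9 percent raised and 17.6 percent lowered by UCI-1014, beside 23.7 and 23.4 percent of all genes. The falls were fewer without some libraries, with 1 fall under UCI-1001 without UCI-1001 library 1, 0 without UCI-1001 library 2 or either DMSO library, and 3 under UCI-1014 without DMSO library 1. The largest change was in ZFAND2A, whose product binds the cap under proteotoxic stress. It stood at 7.22 and 5.52 CPM with DMSO, 50.5 and 65.5 CPM with UCI-1001 and 288 and 236 CPM with UCI-1014 (log2 fold change 5.35 ± 0.15 (SE), adjusted p = 1.17e-12). MAFF, a small MAF partner of NFE2L1 and NFE2L2, stood at 5.41 and 4.55, 28.9 and 35.8, and 137 and 137 CPM (log2 fold change 4.77 ± 0.11 (SE), adjusted p = 1.13e-13). In both genes the 3 groups did not overlap, and UCI-1001 alone raised them by 3.18 and 2.69 on the log2 scale. UBB, a polyubiquitin gene, stood at 691 and 692, 1205 and 1239, and 2454 and 2306 CPM (log2 fold change 1.78 ± 0.038 (SE), adjusted p = 6.48e-14), and RPS27A, which encodes ubiquitin fused to a ribosomal protein, was at -0.081 ± 0.035, adjusted p = 0.0708.

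Of the factors that drive proteasome genes, NFE2L1 fell slightly with UCI-1014, from 292 and 284 to 256 and 265 CPM (log2 fold change -0.14 ± 0.037 (SE), adjusted p = 0.00508), and NFE2L3 fell by 0.23. NFE2L2 rose from 84.1 and 82.8 CPM to 97.4 and 114 CPM with UCI-1001 (log2 fold change 0.34 ± 0.061 (SE), adjusted p = 0.00157) and 172 and 172 CPM with UCI-1014 (log2 fold change 1.04 ± 0.059 (SE), adjusted p = 3.22e-09). These are transcript levels, while NFE2L1 and NFE2L2 are known to be regulated largely as proteins. VCP, the segregase that NFE2L1 needs to leave the endoplasmic reticulum, rose by 0.22 with UCI-1014. Among substrate shuttles UBQLN1 rose from 204 and 199 to 348 and 337 CPM (log2 fold change 0.77 ± 0.037 (SE), adjusted p = 5.89e-10), while UBQLN4, from 173 and 169.9 to 126 and 128 CPM (log2 fold change -0.43 ± 0.042 (SE), adjusted p = 9.56e-07), and UBQLN2 (by 0.26) fell. These were also the genes lowered by UCI-1001, by 0.19 and 0.14. Of the cap's own partners, the ubiquitin receptor ADRM1 rose by 0.39, AKIRIN2, which carries proteasomes into the nucleus, by 0.61, and the small cap subunit SEM1 fell by 0.28 on the log2 scale. The comparison between the compounds gave 16 of the 34 higher with UCI-1014 and 4 lower (47.1 and 11.8 percent, beside 17.1 and 13.9 percent of all genes), with the largest log2 differences in ZFAND2A (2.17) and MAFF (2.08). UBQLN4 (-0.24) and NFE2L3 (-0.21) were among the lower genes, and the 4 became 1 without UCI-1001 library 1 and 2 without UCI-1014 library 1.

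p53-WT was compared with p53-null to ask how cells with induced p53-WT differ from the parental cells. The p53-WT cells are a separate line made with a lentivirus. Effects of p53 and of making that line cannot be told apart here. Of 46 members tested, 7 rose and 16 fell, 15.2 percent and 34.8 percent, where 33.5 percent of the 14275 genes tested were raised and 33 percent lowered. The median log2 fold change over the members was -0.082 and over all genes -0.013. Without both libraries numbered 1, an alternative chosen after seeing the data, 12 rose and 19 fell. Calls over all genes also went up there, to 5397 raised and 5284 lowered of 14386, from 4785 and 4704 of 14275. Without p53-null library 2 or 3 the rises were 4, and the falls were 10 without p53-null library 3 or p53-WT library 2 and 9 without p53-WT library 3. On TPM, where the median of all genes moved to -0.20, the member median was -0.35 and 1 member rose and 21 fell, out of 37 with usable TPM.

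Most of the cap genes that passed the test were lower. Of 17 cap subunits 8 fell and 1 rose (median -0.16), or 47.1 and 5.88 percent beside 33 and 33.5 percent of all genes. Of 14 constitutive core subunits 1 fell and 0 rose (median 0.029), with 0 above p53-null at an unadjusted p under 0.05 and 0 raised by DESeq2. Without both libraries numbered 1, the cap gave 8 lowered and 1 raised (median -0.070), and the core 3 lowered and 4 raised (median 0.076). The median of all genes there was 0.0014. On TPM the cap gave 8 lowered of 13 and the core 5 lowered of 13, with medians of -0.37 and -0.17 beside the -0.20 of all genes. The summed core stood at 4180.4, 3218 and 3430.5 CPM in the p53-null libraries and 4259, 3442 and 3457 CPM in the p53-WT libraries, which overlap. The summed cap stood at 5846, 5127 and 5339.8 and 5298, 4737 and 4715 CPM, where p53-WT library 1 lay among the p53-null libraries.

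**Figure D4:**
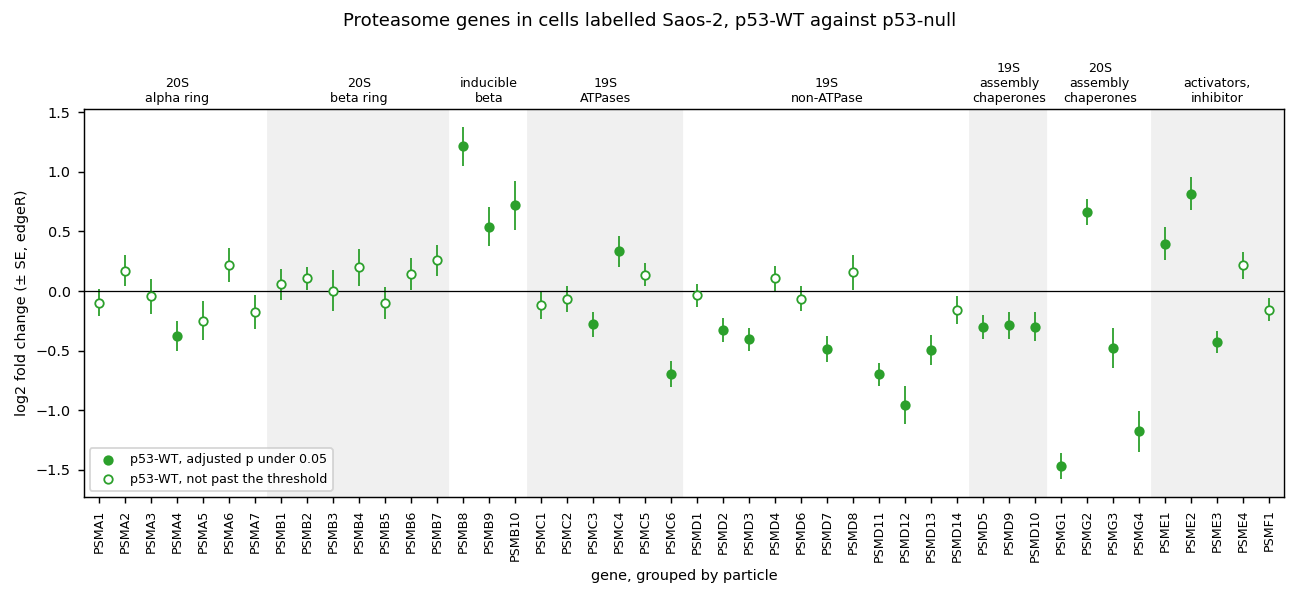
Log2 fold change (y axis, ± SE from edgeR) of each tested proteasome gene in p53-WT against p53-null cells labelled Saos-2, grouped by particle, with filled points past an adjusted p of 0.05. The 3 inducible beta subunits lie above 0, 8 cap subunits and all 3 of the cap's chaperones lie below it as filled points, and PSMG1 and PSMG4 lie lowest while PSMG2 is above 0.

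PSMG1 (ENSG00000183527, chr21:39174769-39183488) fell most. It pairs with PSMG2, and the pair holds alpha subunits together while their ring forms. PSMG1 stood at 51.2, 47.3 and 45.8 CPM in p53-null and 16.1, 18.2 and 17.8 CPM in p53-WT cells (log2 fold change -1.47 ± 0.11 (SE), adjusted p = 4.72e-07, -1.36 without both libraries numbered 1). PSMG2 went the other way, from 31.9, 25.6 and 28.8 to 46.7, 44.8 and 45.4 CPM (log2 fold change 0.66 ± 0.11 (SE), adjusted p = 0.0003, 0.73 without those libraries). Neither gene's groups overlapped. Of the second chaperone pair, PSMG4 fell from 23.1, 19.8 and 26.9 to 12.3, 10.6 and 8.02 CPM (log2 fold change -1.18 ± 0.17 (SE), adjusted p = 0.000102), and PSMG3 from 65.3, 48.9 and 56.6 to 51.8, 34.2 and 36.3 CPM (log2 fold change -0.48 ± 0.17 (SE), adjusted p = 0.025), with p53-WT library 1 above the lowest p53-null library. The call of PSMG3 was lost without p53-null library 1 or 3 and without p53-WT library 2 or 3. All 3 chaperones of the cap fell, PSMD5 by 0.30, PSMD10 by 0.30 and PSMD9 by 0.29 on the log2 scale. The calls of PSMD10 (adjusted p = 0.0498) and PSMD9 (adjusted p = 0.0438) were lost with RLE factors, with DESeq2 and in 6 and 5 of the 6 fits without 1 library, and that of PSMD5 without p53-null library 2 or 3 or p53-WT library 3.

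PSMD12 fell most of the cap's genes. It went from 204, 202 and 195 to 74.7, 117 and 118 CPM (log2 fold change -0.96 ± 0.16 (SE), adjusted p = 0.000272). The p53-WT library 1 was the lowest, and without both libraries numbered 1 the fall was -0.75. PSMD11 went from 219, 223 and 233 to 130.3, 144 and 142 CPM (log2 fold change -0.70 ± 0.097 (SE), adjusted p = 7.52e-05). The ATPase gene PSMC6 went from 154, 132 and 128 to 79.7, 88.2 and 87.5 CPM (log2 fold change -0.70 ± 0.11 (SE), adjusted p = 0.000183). In all 3 genes the groups did not overlap. PSMD13, PSMD7, PSMD3, PSMD2 and PSMC3 fell by 0.49, 0.48, 0.41, 0.33 and 0.28. Of the cap genes with a PSM symbol, PSMC4 was the gene that rose, by 0.33 (adjusted p = 0.0401). PSMC2, which rose with both compounds in TOV-112D, was at -0.067 ± 0.11, adjusted p = 0.606, and PSMD14 at -0.16 ± 0.12, adjusted p = 0.251. The call of PSMC3 was lost with RLE factors and in 5 of the 6 fits without 1 library, that of PSMD2 in 3 (p53-null library 3, p53-WT library 2 or 3) and that of PSMC4 in 3 (p53-null library 2 or 3, p53-WT library 1).

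The inducible beta subunits rose, all 3 of those tested. PSMB8 (ENSG00000204264, chr6:32840717-32844679), which takes the place of PSMB5, stood at 36.1, 27.4 and 29.6 CPM in p53-null and 89.6, 59.9 and 66.5 CPM in p53-WT cells (log2 fold change 1.21 ± 0.16 (SE), adjusted p = 5.68e-05, 1.16 without both libraries numbered 1). PSMB10 stood at 21.2, 12.98 and 18.5 and 37.6, 24.5 and 24.8 CPM (log2 fold change 0.72 ± 0.20 (SE), adjusted p = 0.00934). PSMB9, which takes the place of PSMB6, stood at 9.35, 6.87 and 7.02 and 12.8, 9.46 and 11.5 CPM (log2 fold change 0.54 ± 0.17 (SE), adjusted p = 0.014), with 1 p53-WT library just above the highest p53-null library. The constitutive counterparts did not pass the test with all 6 libraries. PSMB5 stood at 256, 202 and 222 and 246, 183 and 204 CPM, PSMB6 at 259, 209 and 232 and 308, 230.2 and 234 CPM, and PSMB7 at 395, 325 and 349 and 503, 386 and 389 CPM, with 95% intervals of the log2 fold change of -0.40 to 0.19, -0.16 to 0.44 and -0.031 to 0.55. In each the groups overlapped, and both libraries numbered 1 were the highest of their group. Without both of those libraries PSMB7 passed the same test (log2 fold change 0.21, adjusted p = 0.00344). PSMB5 and PSMB6 did not pass it there, at -0.13 and 0.082 (adjusted p = 0.103 and 0.223). The call of PSMB9 was lost with identifiers as deposited and without p53-null library 2 or 3.

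The interferon-type activator rose with them. PSME2 stood at 72.98, 55.4 and 59.2 CPM in p53-null and 127, 99.6 and 104 CPM in p53-WT cells (log2 fold change 0.82 ± 0.14 (SE), adjusted p = 0.000299), and PSME1 at 82.7, 67.6 and 68.2 and 113, 88.5 and 86.3 CPM (log2 fold change 0.40 ± 0.13 (SE), adjusted p = 0.0224). Every p53-WT library lay above every p53-null library in both, and the call of PSME1 was lost without p53-null library 2 or 3. PSME3, the nuclear activator that is known to speed degradation of p53 itself with MDM2, fell from 184, 188 and 181 to 134, 139.7 and 137 CPM (log2 fold change -0.43 ± 0.093 (SE), adjusted p = 0.00173), and PSME4 stood at 98.04, 112 and 108 and 108, 131 and 129 CPM (adjusted p = 0.112). The inhibitor PSMF1 was at -0.16 ± 0.099, adjusted p = 0.186. The alpha ring gave 1 call, PSMA4, which fell by 0.38 and lost its call without p53-WT library 2 or 3. Set side by side, PSMB10 and PSME2 fell with UCI-1014 in TOV-112D (-0.74 and -0.28) and rose with p53-WT (0.72 and 0.82), while PSMD12 and PSMD11 rose with UCI-1014 (0.60 and 0.32) and fell with p53-WT (-0.96 and -0.70). PSMG3 and PSMG4 fell in both. The difference between these effects was not tested, since the cell lines, times and treatments all differ.

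**Figure D5:**
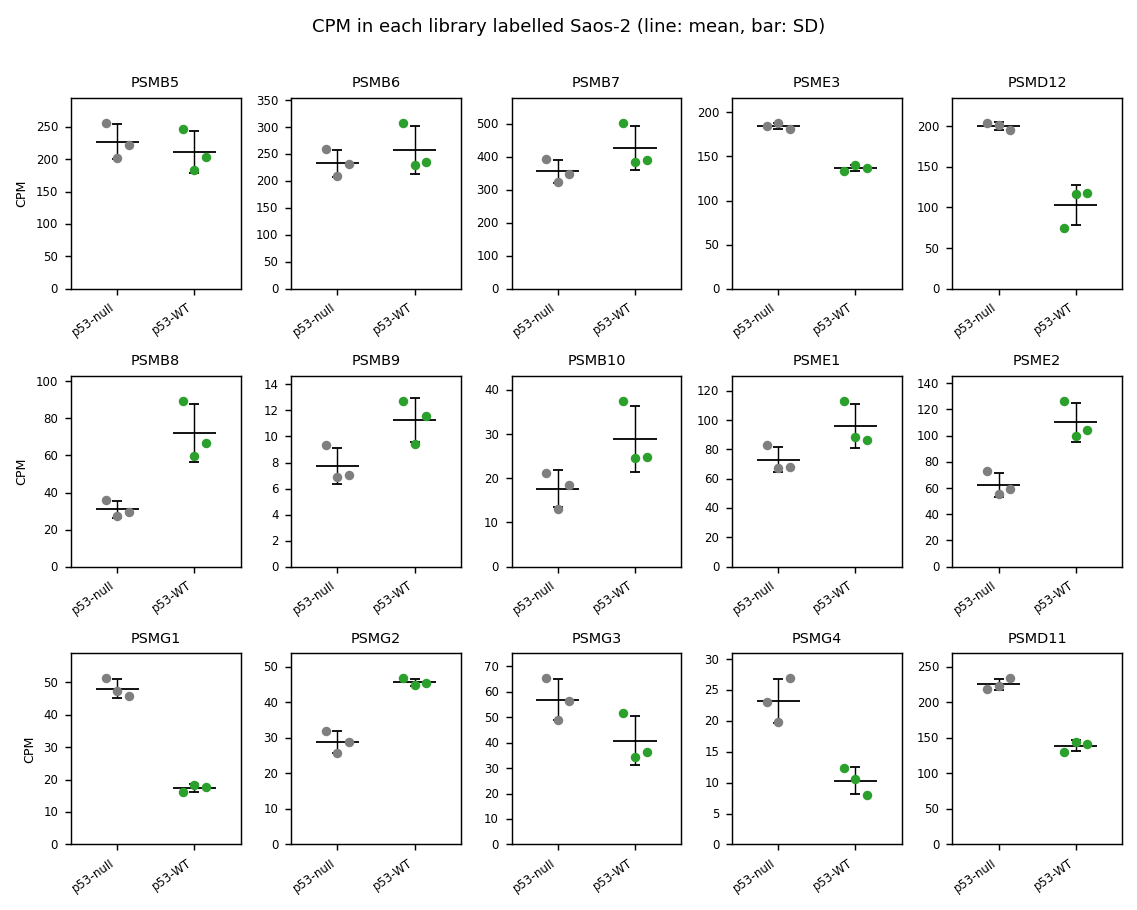
CPM of 15 proteasome genes in each of the 3 p53-null and 3 p53-WT libraries labelled Saos-2, with the mean as a line and the SD as a bar, left to right in order of library number and with the y axis from 0. PSMB8, PSMB9, PSMB10, PSME1, PSME2 and PSMG2 are higher in every p53-WT library, PSMD11, PSMD12, PSME3, PSMG1 and PSMG4 lower, and PSMB5, PSMB6, PSMB7 and PSMG3 overlap.

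PSMB10 was the one member whose transcript forms differed by the rule used (a change of at least 10 percentage points in the share of TPM held by transcripts that GENCODE does not annotate as protein coding, with no overlap of the groups). Transcripts annotated as retaining an intron held 95.4, 95.4 and 94.3 percent of its TPM in p53-null and 78.9, 73.3 and 77.3 percent in p53-WT libraries. The coding transcript PSMB10-201 stood at 2.67, 1.91 and 3.14 TPM in p53-null and 14.1, 13.1 and 11.5 TPM in p53-WT cells. The main retained-intron transcript, PSMB10-203, stood at 49.9, 34.4 and 45.7 and 46.4, 32.4 and 33.9 TPM, which overlap. In TOV-112D the fall with UCI-1014 was in PSMB10-203, from 35.3 and 29.3 TPM to 18.8 and 14.9 TPM, while PSMB10-201 stood at 1.86 and 4.61 and 3.76 and 2.69 TPM. PSMD12 did not meet the rule, but its median share went from 73.1 percent with DMSO to 78.8 percent with UCI-1014, without overlap. Its retained-intron form PSMD12-208 went from 58.3 and 60.7 to 96.8 and 90.8 TPM. PSMD12-207, annotated for nonsense-mediated decay, went from 20.1 and 20.5 to 40.8 and 36.6 TPM. The coding PSMD12-201 went from 17.1 and 15.4 to 24.5 and 21.4 TPM, and PSMD12-202 from 12.6 and 13.8 to 13.6 and 13.2 TPM. These are kallisto's estimates for short overlapping transcripts and carry no count test, PSMB10 shares 640 exon bases with another protein-coding gene on the same strand, and its gain with p53-WT was not called on gene TPM.

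Of the 34 partner genes, 5 rose and 13 fell with p53-WT, or 14.7 and 38.2 percent beside 33.5 and 33 percent of all genes, with a median log2 fold change of -0.19. ADRM1, the ubiquitin receptor at the tip of the cap, stood at 221, 214 and 233 CPM in p53-null and 772, 572 and 657 CPM in p53-WT cells (log2 fold change 1.58 ± 0.13 (SE), adjusted p = 8.11e-07). UCHL5, the deubiquitinase that docks on ADRM1, went the other way, from 53.9, 48.00 and 43.9 to 9.75, 17.6 and 16.5 CPM (log2 fold change -1.74 ± 0.19 (SE), adjusted p = 1.23e-05). Neither gene's groups overlapped. PITHD1, which binds the proteasome, fell by 0.89. UBA1, the main ubiquitin-activating enzyme, rose by 0.48. NFE2L1 was at -0.062 ± 0.11, adjusted p = 0.65, and NFE2L2 at -0.24 ± 0.10, adjusted p = 0.0559. Without both libraries numbered 1, 10 of the 34 rose.

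Some of these values rest on shared sequence. PSMB8 and PSMB9 each have 8 identifiers in the table and PSMB3, PSMC4, PSME1 and PSME2 have 2, between which reads of one gene are split, and the sums are given here. PSMC2, PSMC6 and PSMD13 have 1 identifier each, but matched transcripts held only 38.9, 76.9 and 92.3 percent of their counts. Their changes could therefore not be checked on TPM, and the source of their other counts was not tested. Exons of PSMC2 share 112 bases with PMPCB on the same strand. Exons of PSMC1 overlap NRDE2 on the opposite strand over 4667 bases and those of PSMG4 overlap SLC22A23 over 1388 bases, PSMB8 and PSMB9 overlap each other and the antisense gene PSMB8-AS1, and the strand setting is not given in the sources used here, so reads of such pairs may not be told apart.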

How the data were processed

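RNA was sequenced in 12 libraries. Per the labels and methods, the authors quantified transcripts with kallisto 0.48.0 on GRCh38, and the submitters' notes also name DESeq2 1.38.3; strandedness and the read filters are not given in the sources used here. The authors deposited a table of whole-number gene counts, used here for the tests, and transcript files of estimated counts with TPM values, used for levels and transcript forms. Estimated counts were compared with gene counts, and TPM was summed for the 39 members with at least 95 percent of their counts in transcripts matched through GENCODE release 44 (163673 of 187626 transcripts matched).

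Identifiers of one symbol were summed, as 6 members have more than 1. Genes passing filterByExpr were scaled by TMM and fitted within each cell line, all its groups together, with edgeR 4.0.16 (glmQLFit, glmQLFTest) and Benjamini-Hochberg adjustment over all genes tested, at 0.05. The compound contrasts share their DMSO libraries. Intervals are 95% intervals of the fitted log2 fold change. Alternatives were RLE factors, DESeq2 1.42.0, no filter on low counts, identifiers as deposited, a replicate block, limma 3.58.1 on log2(TPM + 0.5), only the 2 groups compared, all 12 libraries, a log2 fold change above 1, and each library left out in turn. R 4.3.3, Python 3.11.15, numpy 2.4.6, pandas 2.3.3 and matplotlib 3.10.9 were used.

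The members and lists were chosen with earlier results of these data known. Genes named with values in every library are the 3 largest rises and falls per comparison among members with an adjusted p under 0.05, a mean of at least 1 CPM and groups that do not overlap, the catalytic and inducible beta subunits, the activators and members under the filter, and the 3 largest rises and falls among partner genes; further genes were chosen after their values were seen. Some genes that this rule names are not reported here. Promoter windows come from RefSeq on GRCh38.p14. The test was checked on simulated counts with known changes, for UCI-1001 against DMSO and p53-WT against p53-null. Of the calls, 10.1 and 6.78 percent were false, both above the share of 0.05 set by the threshold. Log2 changes of 0.5 were recovered in 86.6 and 32.2 percent of cases. Library totals of 17762027 to 24629558 counts set the precision of low genes.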

Additional observations from a re-analysis of the deposited data

How the results depend on the processing

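No member's call turned direction under any alternative. Of the calls, 0 of 6 raised and 0 of 1 lowered by UCI-1001, 6 of 18 and 1 of 6 by UCI-1014, 0 of 14 and 0 of 4 between the compounds, and 3 of 7 and 9 of 16 with p53-WT were kept under every alternative other than the one on fold size. Members without usable TPM were not put to the alternative on TPM. Among the calls kept these were PSMC2 and PSMC6 for UCI-1014, and PSMB8, PSME2, PSMC6 and PSMD13 for p53-WT. In this paragraph the comparisons stand in the order UCI-1001 against DMSO, UCI-1014 against DMSO, UCI-1014 against UCI-1001, and p53-WT against p53-null, and the cause of each move was not tested. With limma on TPM, which fits fewer members, 1, 9, 2 and 1 members were raised, 0 lowered with UCI-1001 and 1 between the compounds, 9 partner genes raised between the compounds and 3 with p53-WT, 0 lowered for UCI-1001 and 3 for UCI-1014, and the member medians were 0.041, 0.013, -0.021 and -0.35. With all 12 libraries in one fit, the first 3 comparisons gave 0, 6 and 0 members raised, 0, 2 and 0 lowered, 5, 10 and 7 partner genes raised, 0, 2 and 0 lowered, and medians of -0.0026, -0.022 and -0.021. Of all 15794 genes, that fit called 256, 1717 and 657 raised and 52, 1704 and 280 lowered. The main fit called 1331, 3365 and 2430 raised and 901, 3312 and 1976 lowered of 14177. Asking for a log2 fold change above 1 as well left 0, 0, 0 and 1 members raised, 0, 0, 0 and 2 lowered, 3, 6, 3 and 1 partner genes raised, and 0, 0, 0 and 2 lowered. DESeq2 lowered 0 members with UCI-1001 and 0 between the compounds, and 1 and 2 partner genes in those comparisons. Identifiers as deposited lowered 0 members with UCI-1001, no filter on low counts lowered 1 partner gene there, and only the 2 groups compared lowered 2 members between the compounds. Without both libraries numbered 1, p53-WT raised 12 members and 10 partner genes.

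Leaving out 1 library at a time, members raised ranged from 1 to 6, 14 to 19, 12 to 14 and 4 to 9, and members lowered from 0 to 1, 2 to 6, 0 to 3 and 9 to 18. Partner genes raised ranged from 8 to 11, 16 to 19, 14 to 16 and 4 to 7, and lowered from 0 to 2, 3 to 6, 1 to 3 and 11 to 13. The member median ranged from 0.026 to 0.042, 0.040 to 0.069, 0.0056 to 0.043 and -0.14 to -0.011. A lone remaining library was assumed to vary like the other groups.

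Libraries of one number deviated together in only part of the pairs (correlations of 0.17, 0.17 and 0.06 for the cells labelled Saos-2, and 0.037, -0.022 and -0.15 for the compounds), so the numbers were not taken as pairs. With the replicate block, members raised were 6, 17, 12 and 8 and lowered 0, 6, 2 and 17, and partner genes lowered by UCI-1001 were 1. A crossed pairing of the compounds' libraries, chosen after seeing the data, gave 14 raised and 6 lowered.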
